A study of Mus musculus with 6 samples.

Results

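The genes described here are 10 mouse α- and β-tubulin genes, 4 of α-tubulin (Tuba1a, Tuba1b, Tuba1c and Tuba4a) and 6 of β-tubulin (Tubb2a, Tubb2b, Tubb3, Tubb4a, Tubb4b and Tubb5). They were chosen by gene symbol from the 54309 genes of the deposited table, where 25 transcripts carry these symbols. All 10 passed the filter on low values and are among 15108 tested genes. The libraries were made from neuron-enriched cells of the lumbar dorsal root ganglia L4 to L6, which hold the cell bodies of sensory neurons, of male C57bl/6 mice aged 8 to 10 weeks. Every mouse had received AAV, the adeno-associated virus used to deliver genes, in both sciatic nerves 4 weeks before a dorsal column axotomy, a cut of the central branch of the sensory axons in the spinal cord, and tissue was taken 24 hours after the cut. The virus carried GFP alone in the 3 libraries of the AAV-GFP group, and leptin together with GFP in the 3 libraries of the AAV-Leptin-GFP group. No group without the axotomy or without a virus is among these libraries. The promoter of the virus and the number of animals behind each library are not given in the sources used here, so the spread between libraries may be partly technical.

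An α- and a β-tubulin protein form the dimer from which microtubules are built, the tubes that stiffen the axon and carry the motors of axonal transport. The isotypes are separate genes that encode closely similar proteins, which differ most in the acidic tail at the end of the chain, where modifying enzymes, motors and microtubule-associated proteins act. Tuba1a is the main α-tubulin of growing neurons and is known to be raised when peripheral axons are injured, and Tubb3 is a β-tubulin used as a marker of neurons.

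The ends of 3 β-tubulin coding sequences are shown because they hold both the closest β-tubulin pair, Tubb2a and Tubb2b, and Tubb3, the one that differs most from Tubb2a there. Each line gives the last 60 coding bases before the stop codon, 5′ to 3′, from GENCODE M21 on GRCm38. Capitals mark bases that differ from Tubb2a in an alignment of the whole coding sequences.
Tubb2a: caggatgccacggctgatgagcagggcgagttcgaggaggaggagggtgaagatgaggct
Tubb2b: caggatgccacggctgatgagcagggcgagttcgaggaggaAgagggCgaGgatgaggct
Tubb3: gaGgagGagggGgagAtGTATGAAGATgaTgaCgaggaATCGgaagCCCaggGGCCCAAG
Tubb2a and Tubb2b differ at 3 of these 60 bases (95% identity), and Tubb3 carries 31 capitals against Tubb2a (45.9% identity when these ends are aligned alone, against 84.1% for the rest of the coding sequence).

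The starts of the coding sequences are shown because cells lower tubulin mRNA when free tubulin dimers are in excess, a feedback that reads the first residues of the chain as it leaves the ribosome. Capitals mark the first 12 coding bases, the start codon and the next 3 codons.
Tuba1a: ATGCGTGAGTGCatctcc
Tuba4a: ATGCGCGAGTGCatttca
Tubb2a: ATGCGCGAGATCgtgcac
Tubb3: ATGAGGGAGATCgtgcac
Tuba1a, Tuba1b and Tuba1c share the first of these starts letter for letter, and Tubb3 shares its start with Tubb4b.

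Likeness also limits how well reads can be assigned. Coding sequences were 84.8% to 98.3% identical between α-tubulin genes, with Tuba1a and Tuba1b the closest pair, and 81.4% to 96.5% between β-tubulin genes, with Tubb2a and Tubb2b the closest. Of the 31-base words of each gene's transcript, 23.0% for Tuba1a, 24.6% for Tuba1b and 36.1% for Tuba1c occur in no other GENCODE M21 gene. The share was 43.6% for Tubb2a, 54.1% for Tubb2b and 35.4% for Tubb4b, and 95.6% to 98.1% for Tubb3, Tubb4a, Tubb5 and Tuba4a. For Tuba4a it describes a minor transcript with a complete reading frame, not the most abundant one. The levels of Tuba1a, Tuba1b and Tuba1c therefore rest on less than all of their sequence, as do those of Tubb2a, Tubb2b and Tubb4b, and how the shared reads were divided cannot be checked from these values.

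Tubulin mRNA was abundant in both groups. Levels are in TPM (transcripts counted relative to a fixed library total), a length-corrected share of each library that allows genes to be compared. With AAV-GFP, Tuba1a (chromosome 15, 98949837 to 98953703, minus strand, GRCm38) had the highest level at 5143 ± 62.8 TPM (SD, n = 3, as for all means below) and was the 8th most abundant of all genes. Tubb3 (chromosome 8, 123411424 to 123422015, plus strand) followed at 3470.1 ± 49.0 TPM and Tuba1b (chromosome 15, 98931425 to 98934565, minus strand) at 2594 ± 95.3 TPM. Tubb4b at 1223 ± 33.8 and Tubb2a at 1185 ± 16.6 TPM came next, and this pair overlapped over the AAV-GFP libraries. Below them stood Tubb5 (950.4 ± 21.9 TPM), Tubb4a (616 ± 10.97), Tuba4a (529 ± 21.98) and Tubb2b (330.1 ± 23.2), each separated from the next without overlap. Tuba1c was far lower at 17.4 ± 1.88 TPM. With AAV-Leptin-GFP the order of the means was the same, and Tubb4b (1102 to 1142 TPM) and Tubb2a (1011 to 1089 TPM) no longer overlapped. Within a group the libraries were close for the abundant isotypes, with a coefficient of variation of 1.22% for Tuba1a in AAV-GFP and 17.03% for Tuba1c in AAV-Leptin-GFP at the extremes.

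**Figure D1:**
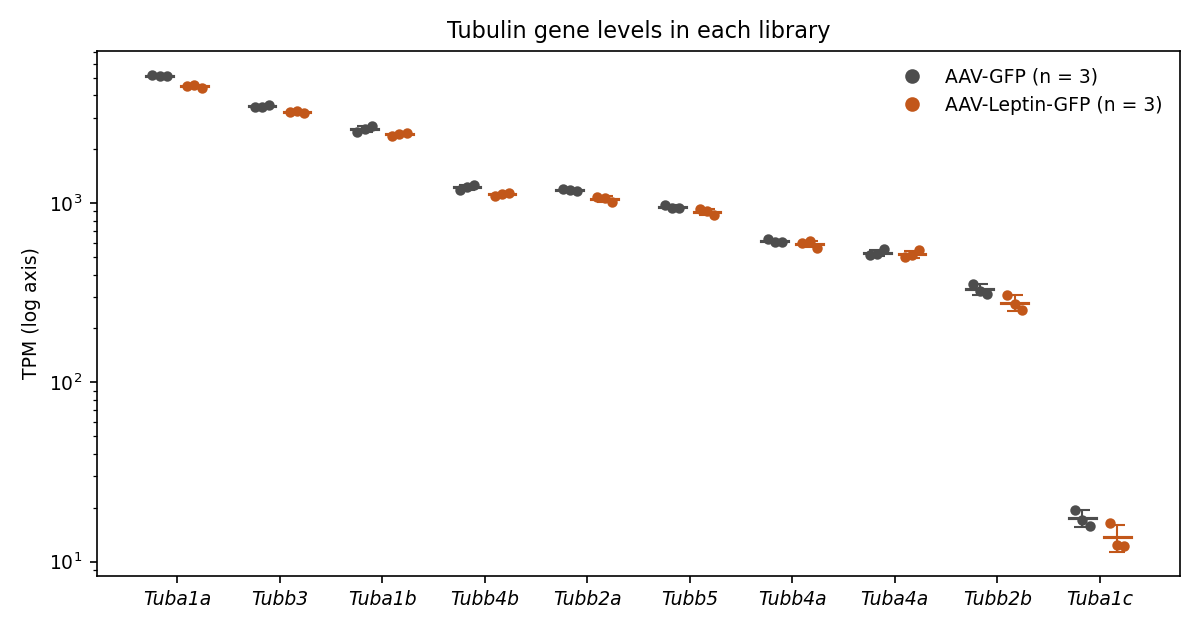
TPM of the 10 tubulin genes in each library on a log axis, ordered by their AAV-GFP mean. Points are libraries, horizontal lines the group means and error bars the SD (n = 3). Levels run from about 5143 TPM for Tuba1a to 17.4 TPM for Tuba1c with AAV-GFP, and the order of the means is the same in both groups.

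Over all genes, 14717 to 14851 stood at 1 TPM or more in the AAV-GFP libraries and 15151 to 15285 in the AAV-Leptin-GFP libraries. Lep itself was listed at 0 in every AAV-GFP library and at 0.751, 0.547 and 3.56 TPM in the AAV-Leptin-GFP libraries. Of all tested genes, 1.54% were called higher and 0.0662% lower with AAV-Leptin-GFP at a limma adjusted p under 0.05. Mitochondrially encoded genes took 5.66% to 6.13% of all TPM with AAV-GFP and 7.35% to 9.15% with AAV-Leptin-GFP. Since TPM sum to a fixed total, that difference by itself lowers every other gene by 0.03 on the log2 scale.

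Of the 10 genes 1 passed the test, Tuba1a, which fell with AAV-Leptin-GFP. It stood at 5215, 5101 and 5114 TPM in the AAV-GFP replicates, and the AAV-Leptin-GFP replicates were at 4517, 4572 and 4378 TPM. All AAV-Leptin-GFP libraries lay below all AAV-GFP libraries, a difference in mean TPM of -12.7%. On log2(TPM + 1) the fold change was -0.20 (SE 0.03, 95% interval -0.27 to -0.13, limma adjusted p = 0.0318). Tuba1a is thus among the 0.0662% of tested genes called lower. Settings that ended the call included the omission of any AAV-Leptin-GFP replicate or of AAV-GFP replicate 2 or 3 (adjusted p = 0.0643 to 0.124), no filter on low values (0.216), protein-coding transcripts only (0.0998) and no mean-variance trend (0.15). Quantile normalization, which matches the libraries rank by rank, gave -0.41 (limma adjusted p = 0.00848). Tuba1a ranked 8th of all genes with AAV-GFP and 14th with AAV-Leptin-GFP. Other abundant genes also moved under this setting, Uchl1 from -0.085 to -0.219 and Apoe from -0.20 to -0.40, whereas Tubb3 went from -0.10 to -0.05. Why the value for Tuba1a grew was not tested.

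The other genes of the α-tubulin group did not pass. Tuba1b, the widely expressed isotype that lies beside Tuba1a on chromosome 15, was at 2497, 2598 and 2687 TPM with AAV-GFP and at 2381, 2438 and 2453 TPM with AAV-Leptin-GFP. Its groups did not overlap, but the gap between them was small, and the log2 fold change was -0.10 (95% interval -0.18 to -0.01, limma adjusted p = 0.204). Tuba1c (chromosome 15, 99029891 to 99038110, plus strand) stood at 19.5, 17.04 and 15.8 against 16.4, 12.4 and 12.3 TPM. The groups overlapped through AAV-GFP replicate 3 and AAV-Leptin-GFP replicate 1, and the log2 fold change of -0.33 had a wide interval (-0.64 to -0.03, adjusted p = 0.214). Tuba4a (chromosome 1, 75214228 to 75219865, minus strand), an isotype known to lack the encoded final tyrosine, was at 511, 521 and 553 against 501, 515 and 547 TPM. The groups overlapped almost wholly, with a log2 fold change of -0.02 (interval -0.13 to 0.09, adjusted p = 0.849).

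Among β-tubulin genes none passed the limma test, while 4 were lower at an unadjusted p under 0.05, against 8.19% of all tested genes lower and 11.3% higher by that rule. Tubb2a (chromosome 13, 34074274 to 34078007, minus strand) stood at 1204, 1179 and 1172 TPM with AAV-GFP and at 1089, 1066 and 1011 TPM with AAV-Leptin-GFP. It came closest to the threshold, with a log2 fold change of -0.17 (SE 0.04, 95% interval -0.26 to -0.08, limma adjusted p = 0.0755) and groups that did not overlap. Its neighbour Tubb2b (chromosome 13, 34126748 to 34130466, minus strand) was at 356, 324 and 311 against 308, 276 and 252 TPM. The gap between these groups was far smaller than the spread within either, and the log2 fold change was -0.25 (interval -0.44 to -0.05, adjusted p = 0.164). Tubb3 was at 3445, 3438 and 3527 against 3230.5, 3281 and 3172 TPM, separate in all libraries, with a log2 fold change of -0.10 (interval -0.17 to -0.04, adjusted p = 0.115).

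Tubb4b (chromosome 2, 25222160 to 25224702, minus strand), the isotype also known from cilia, was at 1188, 1226 and 1256 against 1102, 1127 and 1142 TPM, again without overlap (log2 fold change -0.12, interval -0.20 to -0.04, limma adjusted p = 0.117). Tubb5 (chromosome 17, 35833921 to 35838306, minus strand), the broadly expressed β-tubulin, was at 975, 941 and 935 against 929.9, 901 and 857 TPM. AAV-GFP replicate 3 and AAV-Leptin-GFP replicate 1 differed by only a few TPM here, and the interval of the fold change of -0.09 reached past 0 (-0.18 to 0.01, adjusted p = 0.301). Tubb4a (chromosome 17, 57080066 to 57087782, minus strand), a neural isotype, was at 629, 609.6 and 610.2 against 599, 614 and 564 TPM, with overlap through AAV-Leptin-GFP replicate 2 (-0.06, interval -0.16 to 0.04, adjusted p = 0.494).

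Read as a family, all 10 log2 fold changes were below 0, although Tuba4a, Tubb4a and Tubb5 were above 0 under quantile normalization, and Tuba4a also with mitochondrial genes removed (0.012), with protein-coding transcripts only (0.018), and when either AAV-Leptin-GFP replicate 1 or AAV-GFP replicate 3 was left out (0.0057 and 0.012). The median was -0.11, against a median of -0.00016 over all tested genes, of which 50.1% were below 0. Groups did not overlap and were lower for 7 of the 10, against 11.9% of all tested genes. The difference between these counts and the background is smaller among genes of like abundance. Of 271 other genes whose mean reached 500 TPM, 84.1% were below 0, 48.3% had lower groups without overlap, and the median was -0.10. Of the 8 tubulin genes at that level 8 were below 0, 6 had lower groups without overlap, and the median was -0.10 as well.

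**Figure D2:**
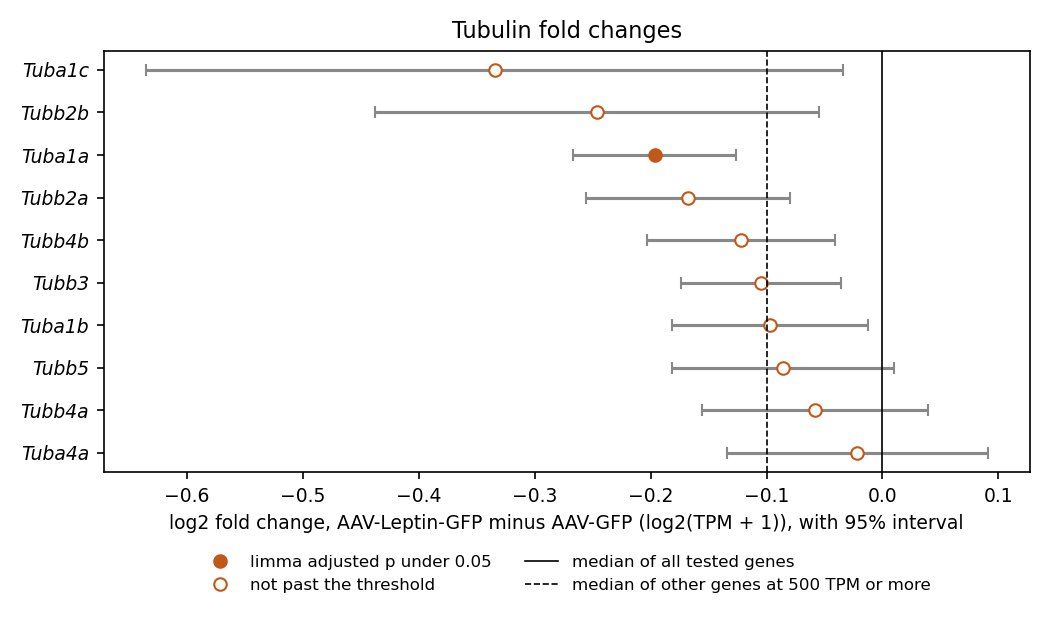
Log2 fold change of each tubulin gene (AAV-Leptin-GFP minus AAV-GFP, log2(TPM + 1)) with its 95% interval from limma. The filled point is Tuba1a (-0.20), which passed the threshold, and open points did not pass. The solid line is the median of all tested genes and the dashed line that of other genes at 500 TPM or more (-0.10). The interval of Tuba1a (-0.27 to -0.13) lies below the dashed line. That line is only a median, and the spread of the other genes around it is not drawn.

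The summed tubulin TPM was lower in each AAV-Leptin-GFP library than in any AAV-GFP library. It was 16040.2, 15955 and 16180.1 TPM with AAV-GFP and 14674, 14801 and 14389 TPM with AAV-Leptin-GFP. Tubulin thus made up 1.61% ± 0.0113 and 1.46% ± 0.0211 of all TPM, a change of -8.95% (exact two-sided permutation p = 0.1, the smallest that 3 against 3 libraries allow). The α-tubulin sum differed by -10.1% and the β-tubulin sum by -7.74% (exact p = 0.1 each). With mitochondrial genes removed and TPM rescaled, the change of the whole sum was -6.77%. Without Tuba1a, the sum of the other 9 genes differed by -7.17% (exact p = 0.1). In bulk libraries, fewer cells of a type and less of an RNA per cell cannot be told apart.

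Shares within the family do not depend on the fixed TPM total, and the mix of isotypes was close to the same in both groups. Tuba1a made up 32.5%, 32.0% and 31.6% of tubulin TPM with AAV-GFP and 30.8%, 30.9% and 30.4% with AAV-Leptin-GFP. The groups did not overlap, and the difference in means was -1.33 percentage points (exact permutation p = 0.1, n = 3). Tubb3 took a larger share, 21.5%, 21.6% and 21.8% against 22.01%, 22.2% and 22.05%, a difference of 0.467 points without overlap (exact p = 0.1, n = 3). The other 8 isotypes overlapped between the groups (exact p = 0.2 to 0.7), with the shares of Tuba1b (16.2% and 16.6%), Tuba4a (3.29% and 3.56%), Tubb4a, Tubb4b and Tubb5 higher in the mean and those of Tuba1c, Tubb2a and Tubb2b lower. The share of Tubb4b was lower instead when AAV-Leptin-GFP replicate 3 or AAV-GFP replicate 1 was left out (-0.0539 and -0.0345 points, against 0.0708 with all libraries). No adjustment was made over the 10 shares, and none could pass a threshold of 0.05 in this design.

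**Figure D3:**
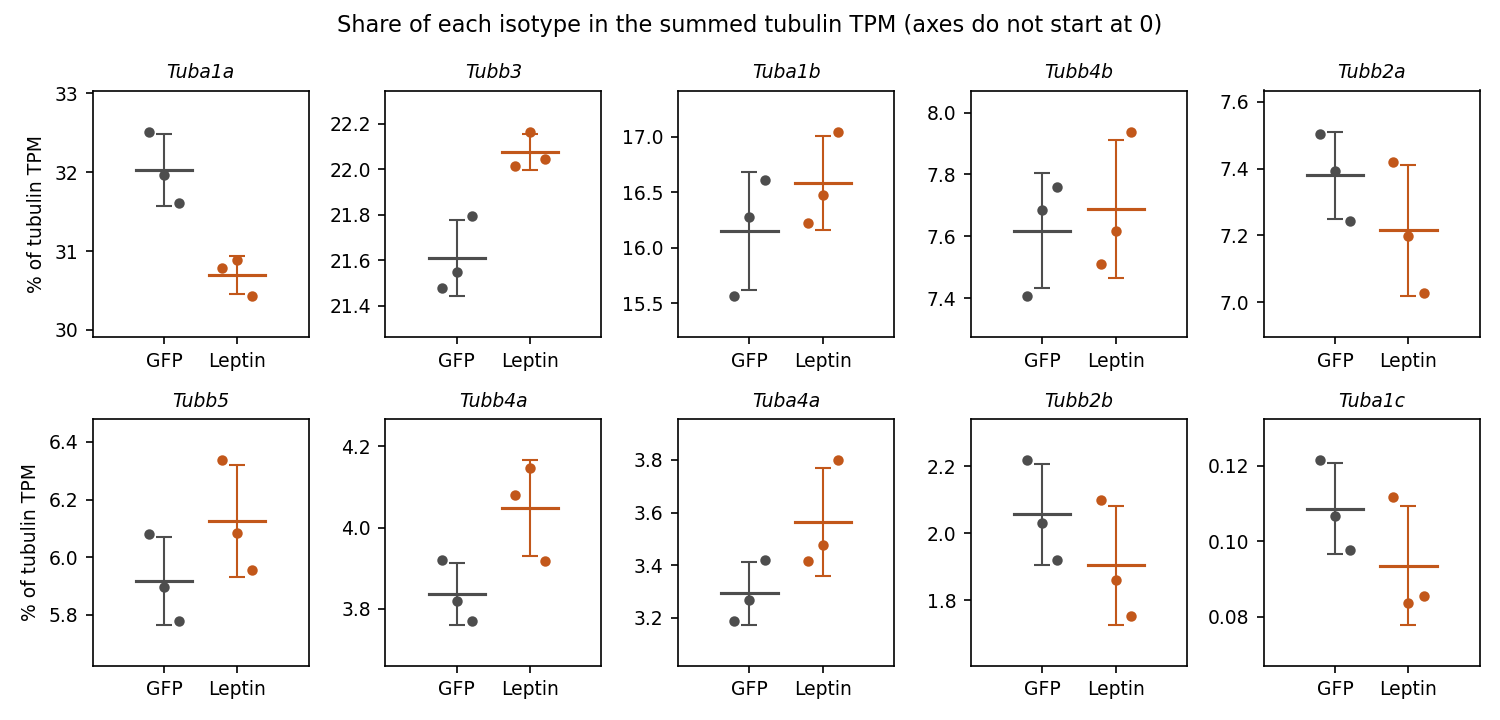
Percent of the summed tubulin TPM taken by each isotype in each library, 1 panel per gene with its own axis that does not start at 0. Points are libraries, lines are means and bars the SD (n = 3). Tuba1a (32.0% against 30.7%) and Tubb3 (21.6% against 22.1%) are the panels in which the groups do not overlap.

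In mean TPM, Tuba1c (-21.5%) and Tubb2b (-15.6%) differed by more between the groups than Tuba1a (-12.7%). Relative to Tuba1b and to Tubb3, Tuba1a stood lower with AAV-Leptin-GFP. Its ratio to Tuba1b was 2.09, 1.96 and 1.90 with AAV-GFP and 1.90, 1.87 and 1.79 with AAV-Leptin-GFP, where AAV-GFP replicate 3 and AAV-Leptin-GFP replicate 1 nearly met. Its ratio to Tubb3, a gene with which it shares little sequence, was 1.51, 1.48 and 1.45 against 1.40, 1.39 and 1.38, with a clear gap (exact permutation p = 0.1 for both ratios, n = 3). The ratio of α- to β-tubulin TPM was 1.06, 1.07 and 1.07 against 1.02, 1.04 and 1.06, so the groups nearly met (exact permutation p = 0.1, n = 3). Within the α-tubulin sum, Tuba1a took 62.1% ± 1.10 and 60.3% ± 0.898, Tuba1b 31.3% ± 0.929 and 32.55% ± 0.569, and Tuba4a 6.38% ± 0.209 and 6.995% ± 0.350, all without overlap (exact permutation p = 0.1, n = 3). Within the β-tubulin sum, Tubb2a took 15.2% ± 0.219 and 14.7% ± 0.278, again without overlap (exact permutation p = 0.1, n = 3), and Tubb3 44.6% ± 0.490 and 45.0% ± 0.433 with overlap. For the shares of Tuba1b and Tubb2a the groups nearly met, the closest libraries being at 32.103% and 32.110%, and at 15.004% and 14.9996%. The gaps for Tuba1a and Tuba4a were also smaller than the SD of either group.

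Transcript classes differed between isotypes. Tuba1a, Tubb2a and Tubb4a have a single transcript in the table, while Tuba4a has 8 and held 43.1% ± 0.217 of its TPM outside its main transcript in the AAV-GFP group and 42.9% ± 0.791 in the AAV-Leptin-GFP group. A retained-intron transcript, which still holds an intron, carried 76.3, 82.0 and 91.0 TPM of Tuba4a with AAV-GFP and 79.6, 67.7 and 93.7 TPM with AAV-Leptin-GFP, with full overlap. For Tuba1b such a transcript was listed at 3.74, 1.41 and 1.52 TPM against 11.5, 9.002 and 10.7 TPM. For Tubb5 the retained-intron sum was 9.20, 4.46 and 5.90 against 11.4, 12.96 and 9.97 TPM. In both genes the AAV-Leptin-GFP libraries lay above the AAV-GFP libraries (exact permutation p = 0.1, n = 3), and the amounts were a small part of each gene. With AAV-Leptin-GFP, 0.428% of the TPM of Tuba1b and 1.42% of that of Tubb5 lay outside the main transcript. The minor transcript of Tubb4b likewise held 0.117% ± 0.0621 and 0.396% ± 0.189 of that gene, without overlap, whereas the retained-intron transcript of Tuba1c was lower, at 1.20 ± 0.293 and 0.575 ± 0.498 TPM. Over all genes retained-intron transcripts took 2.29% ± 0.200 and 3.53% ± 0.260 of TPM, while within the tubulin family the shares were 0.579% ± 0.0302 and 0.703% ± 0.0917 and overlapped (exact p = 0.2, n = 3). Most of this family share lay on the Tuba4a transcript (83.1 ± 7.41 and 80.3 ± 13.1 TPM), so it says little of the other isotypes.

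The other tubulin genes were scarce. Of 10 genes, 7 passed the filter and none passed the limma test at either the adjusted threshold or an unadjusted p under 0.05. The γ-tubulins Tubg1 and Tubg2, which nucleate microtubules at centrosomes and elsewhere, stood at 53.0 ± 0.459 and 39.5 ± 1.99 TPM with AAV-GFP and at 49.9 ± 1.61 and 40.1 ± 0.819 TPM with AAV-Leptin-GFP. Tubb6, a β-tubulin, was at 14.0 ± 1.40 and 13.9 ± 0.471 TPM. Tuba3b at 1.04 and 1.71 TPM, Tuba8 at 2.80 and 2.99, Tubd1 at 3.91 and 3.60, and Tube1 at 3.09 and 3.45 TPM were near the limit of the filter. Tuba3a, Tubal3 and Tubb1, the platelet isotype, lay below it, with no library above 1 TPM.

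Tubulin needs help to fold, first from prefoldin and the chaperonin CCT and then from the tubulin cofactors that join α- and β-chains into a dimer. Of 21 folding genes 20 had log2 fold changes below 0 (median -0.12), 13 had lower groups without overlap, and 1 passed the test, Tbce, which rose. All 8 chaperonin subunits (median -0.10) and all 6 prefoldin subunits (median -0.18) were below 0 without a call. At an unadjusted limma p under 0.05 were 5 and 3 of them, against 8.19% of all tested genes lower by that rule. Other genes at 100 TPM or more, the range of most folding genes, were below 0 in 77.8% of 1953 cases and had lower groups without overlap in 36.4%. The chaperonin subunit Cct7, named after its values were seen, stood at 308 ± 5.54 and 272 ± 2.65 TPM (log2 fold change -0.18, limma adjusted p = 0.0584). Prefoldin subunit Pfdn5, chosen in the same way, was at 224 ± 15.6 and 183 ± 16.8 TPM (-0.30, adjusted p = 0.107).

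Tbce encodes cofactor E, which binds α-tubulin during dimer assembly. It rose with AAV-Leptin-GFP, to 61.9, 66.1 and 53.7 TPM from 44.8, 36.4 and 40.2 TPM with AAV-GFP. The groups did not overlap, and the log2 fold change was 0.57 (SE 0.10, 95% interval 0.33 to 0.80, limma adjusted p = 0.0462). The protein-coding transcript did not share this difference, at 19.0, 24.4 and 29.4 TPM with AAV-GFP and 23.0, 20.3 and 19.2 TPM with AAV-Leptin-GFP. Its 9 retained-intron transcripts held 19.7, 10.99 and 8.71 TPM against 37.1, 39.5 and 30.6 TPM (exact permutation p = 0.1, n = 3). With protein-coding transcripts only, the fold change of Tbce was -0.16 (adjusted p = 0.633). Other settings that ended the call included leaving out AAV-GFP replicate 2 or 3 or AAV-Leptin-GFP replicate 1 or 2 (adjusted p = 0.129 to 0.169), no filter on low values (0.111) and no mean-variance trend (0.0954).

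**Figure D4:**
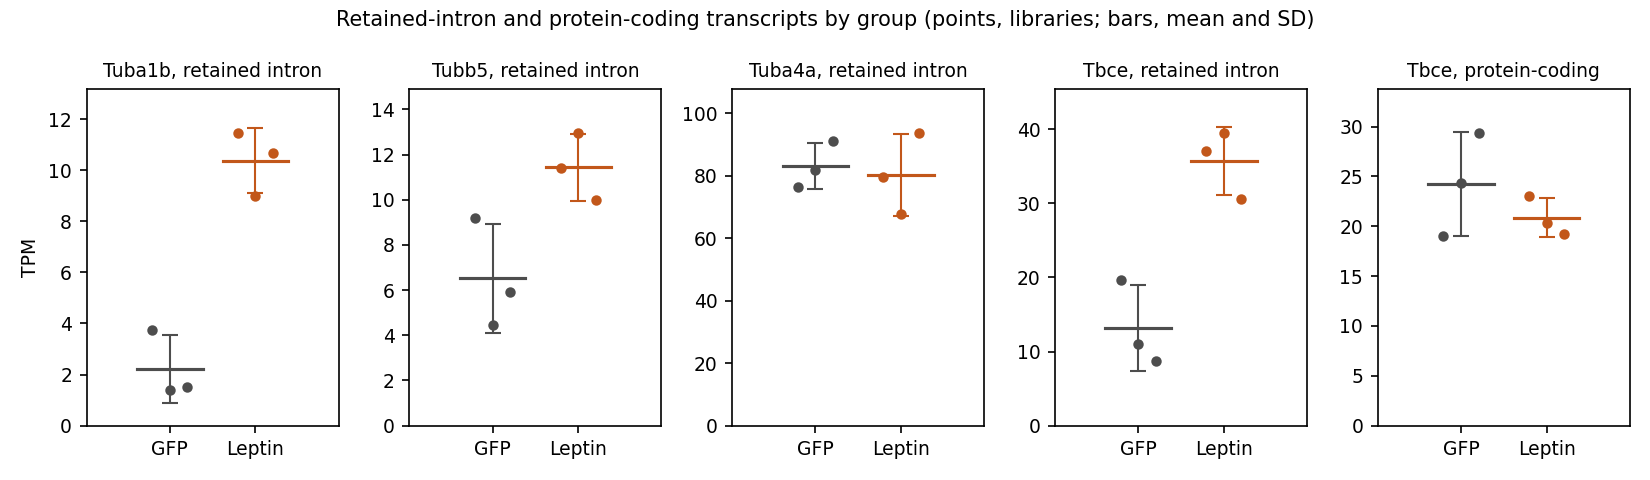
TPM of retained-intron transcripts of Tuba1b, Tubb5, Tuba4a and Tbce and of the protein-coding transcript of Tbce, by group. Points are libraries, lines are means and bars the SD (n = 3), with axes from 0. Groups are separate for Tuba1b, Tubb5 and the retained-intron transcripts of Tbce, and overlap for Tuba4a and for the protein-coding transcript of Tbce (24.2 and 20.8 TPM).

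Enzymes that modify tubulin gave 0 calls among 20 tested genes in limma, with 10 below 0 and 10 above. At an unadjusted limma p under 0.05, 2 were lower and 4 higher, against 8.19% of all tested genes lower and 11.3% higher. Hdac6, a deacetylase of α-tubulin, stood at 16.2 ± 1.54 and 20.98 ± 1.21 TPM (log2 fold change 0.36, limma adjusted p = 0.0882). Atat1, from the same list and named after its values were seen, was also higher in the mean. It stood at 13.7 ± 2.80 and 19.4 ± 3.98 TPM with overlap (0.47, limma adjusted p = 0.222). Svbp, the partner of the vasohibin enzymes that remove the final tyrosine, was at 26.7 ± 0.996 and 22.1 ± 2.24 TPM (-0.26, adjusted p = 0.152). Without AAV-GFP replicate 1, Hdac6 passed (0.43, limma adjusted p = 0.0485). That omission raised the higher calls over all tested genes from 233 to 453. Hdac6 did not pass without AAV-GFP replicate 2 or 3 (adjusted p = 0.249 and 0.226). Nor did it without any 1 AAV-Leptin-GFP replicate (0.11 to 0.228) or with protein-coding transcripts only (0.212).

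Genes of microtubule-associated and end-binding proteins gave 0 calls among 29 in limma, with a median of 0.01. By an unadjusted limma p under 0.05, 3 were lower and 1 higher, against 8.19% and 11.3% of all tested genes. Map7d1, a microtubule-associated protein gene, stood at 203 ± 15.5 and 259 ± 17.6 TPM (log2 fold change 0.35, limma adjusted p = 0.0641). It passed without AAV-GFP replicate 1 (adjusted p = 0.0405), with quantile normalization (0.0388), with mitochondrial genes removed (0.042) and with protein-coding transcripts only (0.0498). Settings in which it did not pass included the omission of AAV-GFP replicate 2 or 3 (0.199 and 0.181) or of any AAV-Leptin-GFP replicate (0.0567 to 0.196). Others were no filter and no mean-variance trend (0.138 each). Map1lc3a, whose product is a light chain of MAP1 and an autophagy protein, was at 841 ± 25.3 and 768 ± 4.84 TPM (-0.13, adjusted p = 0.106). The axonal proteins Map1b and Mapt, chosen after their values were seen, were at 0.02 and -0.03. Of 6 severing genes none passed in limma or had an unadjusted p under 0.05 (median 0.12). Katna1, a katanin gene, was at 0.17 (adjusted p = 0.475). The feedback factors that act on tubulin mRNA gave 0 of 3 calls, with none at an unadjusted limma p under 0.05. Cnot11 stood at 24.6 ± 5.21 and 21.2 ± 5.54 TPM (-0.21), Scaper at 20.1 ± 0.695 and 19.2 ± 1.16 TPM (-0.07), and Ttc5, the factor that recognises the nascent tubulin chain, was at 0.05.

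**Figure D5:**
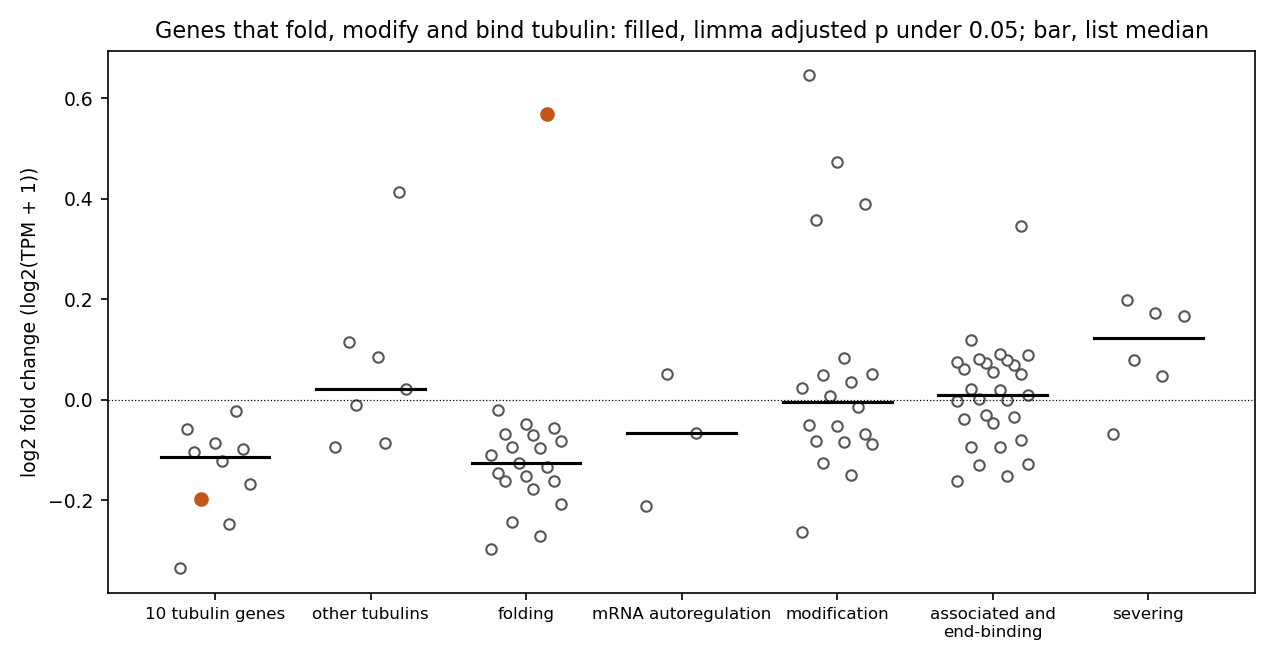
Log2 fold change (log2(TPM + 1)) of each tested gene of the tubulin family and of 6 related lists. Filled points passed a limma adjusted p under 0.05 (Tuba1a at -0.20 and Tbce at 0.57), open points did not, and black bars are list medians, which are -0.11 for the 10 tubulin genes, -0.12 for folding genes and 0.01 for associated and end-binding proteins.

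The genes whose levels most resembled the summed tubulin TPM over the 6 libraries were Pja1, Atp6v0d1, Hras, Ensa and Tpi1 (Pearson correlation 0.992 to 0.996 with log2 values, the highest among 1953 other genes at 100 TPM or more). The libraries differ by group, so these values mostly restate the group difference. Hras stood at 152 ± 0.488 and 134 ± 3.11 TPM and Atp6v0d1, a subunit of the vacuolar proton pump, at 349 ± 2.01 and 325 ± 4.59 TPM. None of the 5 passed the limma test (adjusted p = 0.0565 to 0.357).

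Markers of the cell types in the preparation did not all move with tubulin. The 10 sensory neuron markers summed to 20130 to 21466 TPM with AAV-GFP and 19967 to 20606 TPM with AAV-Leptin-GFP, with overlap. Singly, 7 of these markers had log2 fold changes below 0 and 3 above. Uchl1 (4926 ± 57.5 and 4644 ± 70.7 TPM) and Prph (2353 ± 76.1 and 2186 ± 86.7 TPM) were lower without overlap, and Isl1 (81.8 ± 3.02 and 90.1 ± 2.46 TPM) was higher without overlap. The 6 satellite glia markers summed to 8092 to 9246 against 7245 to 7953 TPM and the 6 Schwann cell markers to 949 to 983 against 825 to 909.9 TPM, both without overlap (exact permutation p = 0.1, n = 3). Most of the satellite glia sum was Apoe (7164 ± 464 and 6229 ± 284 TPM), and Apoe and Fabp7 (871 ± 160.5 and 600.3 ± 73.8 TPM) were the 2 of these markers whose groups did not overlap, while Glul (296 ± 8.60 and 327 ± 22.9 TPM) and Cdh19 (47.1 ± 8.09 and 53.9 ± 6.26 TPM) were higher in the mean. The part of these cells in the tubulin values was not tested. The macrophage (21.4 to 35.2 and 24.4 to 25.6 TPM), fibroblast (60.9 to 75.4 and 59.4 to 87.6 TPM) and endothelial sums (8.77 to 11.7 and 7.02 to 14.5 TPM) were small and overlapped. Erythroid markers summed to 170.1 to 256 TPM and to 239 to 1724 TPM, with AAV-Leptin-GFP replicate 3 the highest, and without that library the tubulin sum differed by -8.22%. No marker of these 7 lists was at 0 in any library, and none was called in limma. At an unadjusted limma p under 0.05 there were 2 neuron, 2 satellite glia and 2 Schwann cell markers lower. By the same rule 1 neuron, 1 satellite glia and 2 erythroid markers were higher. Over all tested genes that rule gave 8.19% lower and 11.3% higher.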

How the data were processed

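The authors deposited TPM values, 1 per Ensembl transcript and library, each column summing to 1000000. The tools credited in the submitters' processing notes are Salmon 1.6.0, DESeq2 1.34.0, Trim Galore 0.6.6 and FastQC 0.11.9, and the builds GRCm38 and mm10. Tool roles and the annotation release are not given in the sources used here. Per the labels' protocols, libraries were stranded and made from mRNA. TPM keep no read numbers, so depth is unknown.

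Transcripts were summed by gene identifier. Tests covered the 15108 genes whose mean reached 1 TPM, on log2(TPM + 1), which understates changes of low genes, with limma 3.58.1 (R 4.3.3, mean-variance trend, two-sided, Benjamini-Hochberg over all tested genes, threshold 0.05), checked on simulated data. Sums, shares and ratios used exact permutation tests (scipy 1.17.1). Classes and coordinates came from GENCODE M21 (97.4% of transcript identifiers found). For Tuba4a, the shown start is of the most abundant transcript with a complete reading frame. Alignments used Biopython 1.88, and plots Python 3.11.15 and matplotlib 3.10.9. The members and lists were chosen with earlier results of these data known. Named genes were all tubulins and, from each list, its called genes (at most 4) or, with none called, the 2 of smallest p, plus the 5 genes most like the family. Some marker genes named by this rule are given as list sums. Some other items the rule names are not reported here. Alternatives varied the pseudocount, filter, scaling, transcript classes, trend, block and libraries. No deposited sample column was left out.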

Additional observations from a re-analysis of the deposited data

How the results depend on the processing

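With 3 libraries a group and TPM without read numbers, counting error cannot be separated from the spread between libraries, and an exact permutation test cannot go below 0.1. Over all tested genes, 233 were called higher and 10 lower in limma, against 4 and 0 with no filter, 88 and 3 with protein-coding transcripts only, 74 and 0 with a replicate block and 35 and 0 without a mean-variance trend. The lower calls were 27 with a filter of 5 TPM and 3 with mitochondrial genes removed. Leaving out 1 library gave 4 to 453 higher and 0 to 13 lower calls. The 453 came without AAV-GFP replicate 1, and 4 each without AAV-GFP replicate 2 or 3. Without AAV-Leptin-GFP replicates 1, 2 and 3 the higher calls were 16, 23 and 180. The 1 tubulin call became 0 with no filter, with protein-coding transcripts only, with a replicate block and without a trend, and was 0 to 1 with a library left out. Tuba1a stayed below 0 in all 15 alternatives (-0.41 to -0.16) and was called in 6 of them. In the related lists, the calls higher were 0 with no filter, with the replicate block and without a trend, 2 with quantile normalization and with mitochondrial genes removed, and 0 to 3 with a library left out, and 1 was called lower with the 5 TPM filter. Replicate numbers did not pair the libraries: deviations of same-numbered libraries correlated at 0.03, -0.07 and -0.02, and not every library correlated best with its own number. With the replicate block, the limma adjusted p of Tuba1a was 0.0724 and that of Tbce 0.0787. The causes of these changes were not tested.

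The summed tubulin change was -6.87% with protein-coding transcripts only and -6.77% with mitochondrial genes removed, the α-tubulin sum -8.06% and -7.93%, and the β-tubulin sum -5.61% and -5.54%. With a library left out they ranged from -9.51% to -8.22%, -10.6% to -9.61% and -8.32% to -6.61%. Reversed signs were mostly near 0. With quantile normalization, Tuba4a was at 0.053, Tubb4a 0.036, Tubb5 0.017, Tube1 -0.0065 and Tuba8 -0.042. With mitochondrial genes removed, Tuba4a was at 0.012 and Tubb6 at 0.021. With protein-coding transcripts only, Tuba4a was at 0.018, Tubb6 at 0.021, Tube1 at -0.0058 and Tbce at -0.16. With a library left out, Tuba4a ranged from -0.057 to 0.012, Tubd1 from -0.19 to 0.0072, Tuba8 from -0.0014 to 0.23, Tubg2 from -0.017 to 0.054, Tubb6 from -0.068 to 0.062, and the endothelial markers Cdh5 from -0.27 to 0.015 and Flt1 from -0.29 to 0.0090.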

Other observations

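The tubulin pseudogenes Tuba5-ps, Tubb2a-ps2, Tubb4b-ps1 and Tubb4b-ps2 were listed at 0 to 0.649 TPM in every library. Tubb4b-ps1, which shares 54.5% of the 31-base words of Tubb4b, stood at 0.162, 0.359 and 0.318 TPM with AAV-GFP and at 0.165, 0.418 and 0.615 TPM with AAV-Leptin-GFP, with overlap, beside more than 1000 TPM of Tubb4b in each library. Gm17383 shares 53.6% of the words of Tuba1a, and Gm3226 shares 57.0% of those of Tuba1b. The levels of these 2 genes were not looked at.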
